A study of Mus musculus with 12 samples.

Results

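The difference in gene expression between lymph nodes of tumour-bearing and of tumour-free mice was examined across both states of the node's nociceptive innervation. All 12 libraries of the series entered: 6 from tumour-bearing mice (T) and 6 from tumour-free mice (NT), compared with nerve status as an additive term and without an interaction. The value described for each gene is therefore the tumour difference averaged over both nerve states. The tongue of T mice had been inoculated with B16F10, an established mouse melanoma line, and that of NT mice had not. In NDE mice the pain-sensing (nociceptive) nerves that supply the tumour-draining node had been inhibited, and in NC mice they had not. The 4 groups were T NC, T NDE, NT NC and NT NDE, each with 3 libraries of bulk lymph node RNA described as biologically independent repetitions. Whether 1 library holds 1 mouse is not given in the sources used here, and neither are the strain, the age, the time after inoculation or the means of nerve inhibition. P-values measure the spread between these libraries.

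A draining lymph node filters lymph arriving from its tissue. Lymph passes through sinuses lined by lymphatic endothelium and by resident macrophages that carry the sialic acid receptor CD169 (encoded by Siglec1), scavenger receptors such as MARCO and the mannose receptor (Mrc1). These cells capture particles, dead cells and antigen, depend on the receptor for colony-stimulating factor 1 (Csf1r), and pass material to B cells. Type I interferon, a cytokine class released on viral or nucleic acid sensing, switches on a shared set of antiviral genes in most cell types.

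Library totals ran from 16862953 to 24467873 counts, and 17301 of 55487 genes held enough counts to be tested. The labelled tissue was matched by lymphoid markers: 14 of 14 pan B cell genes and 16 of 16 pan T cell genes were measured above the filter, with summed levels of 4752 to 6778 and 2102 to 2732 CPM (counts scaled to the library size) in T, and 4989 to 6277 and 2153 to 2820 CPM in NT. Genes of salivary gland, a tissue beside the nodes of the neck, made up 4.09% of counts in T NDE replicate 3, 2.90% in NT NC replicate 3 and 0.157% in NT NC replicate 2, against at most 0.00760% in the other 9 libraries. Their 95% Wilson intervals, which cover counting error alone, were 4.09% to 4.10%, 2.89% to 2.90% and 0.155% to 0.159%. These 3 libraries are called the salivary libraries here. They lie on both sides of the tumour comparison, and results are given with and without them.

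With all 12 libraries, no gene passed the test between T and NT. By edgeR's quasi-likelihood test with Benjamini-Hochberg adjustment, 0 of 17301 genes (0%) passed an adjusted p of 0.05, and the smallest adjusted p was 0.774. DESeq2 called 2 genes and limma-voom 0 on the same libraries. At an unadjusted p under 0.05 there were 728 genes (4.21%). Values were higher in T for 8580 genes (49.6%) and lower for 8721 (50.4%). The quartiles of the log2 fold changes (T over NT) were -0.07 and 0.06, and among 15268 tested genes with a mean of at least 1 CPM in T or NT, 43 differed by more than 2-fold in either direction. A log2 fold change below 0 means a lower value in T throughout.

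Both nerve arms, T NC against NT NC and T NDE against NT NDE, share no library, and their tumour differences had the same sign in 8087 of 17301 genes (46.7%). Across genes, which are not independent replicates, the log2 fold changes of both arms had a Pearson correlation of -0.63 and a Spearman correlation of -0.08. The salivary libraries fall in NT in the NC arm and in T in the NDE arm, and the salivary gland list had median log2 fold changes of -6.54 and 8.46 in these arms (15 tested genes). The difference between the arms was tested as well, and no gene passed (edgeR, 0 called, smallest adjusted p 0.321, 1230 genes at an unadjusted p under 0.05).

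Siglec1, the gene of the CD169 receptor of sinus macrophages, had the smallest p of all genes. It lies on mm10 chromosome 2 from 131069220 to 131086765, on the minus strand. Its levels were 237, 256 and 239 CPM in NT NC and 149, 160 and 180 CPM in T NC. In NDE nodes they were 294, 284 and 306 CPM without a tumour and 158, 189 and 258 CPM with one. T libraries lay below NT libraries within each arm without overlap, while T NDE replicate 3 lay inside the range of all NT libraries. Over both arms Siglec1 averaged 182 ± 39.9 CPM in T and 269 ± 29.7 CPM in NT (SD, n = 6), a log2 fold change of -0.56 ± 0.09 (SE) with an edgeR adjusted p of 0.774. The arms gave -0.58 and -0.55, and the adjusted p of their difference was 0.986. DESeq2 called Siglec1 lower on the same libraries (adjusted p 1.71e-05). Over 41 alternative fits its log2 fold change ran from -0.76 to -0.50, and its adjusted p ran from 1.93e-13 to 1.00, with a call in 18 of them. These are not separate checks. All 15 alternatives added after the data were seen left out T NDE replicate 3, and each called Siglec1. Of the 26 fixed first, only DESeq2 and the fits without T NDE replicate 3 and without the 3 salivary libraries called it.

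**Figure D1:**
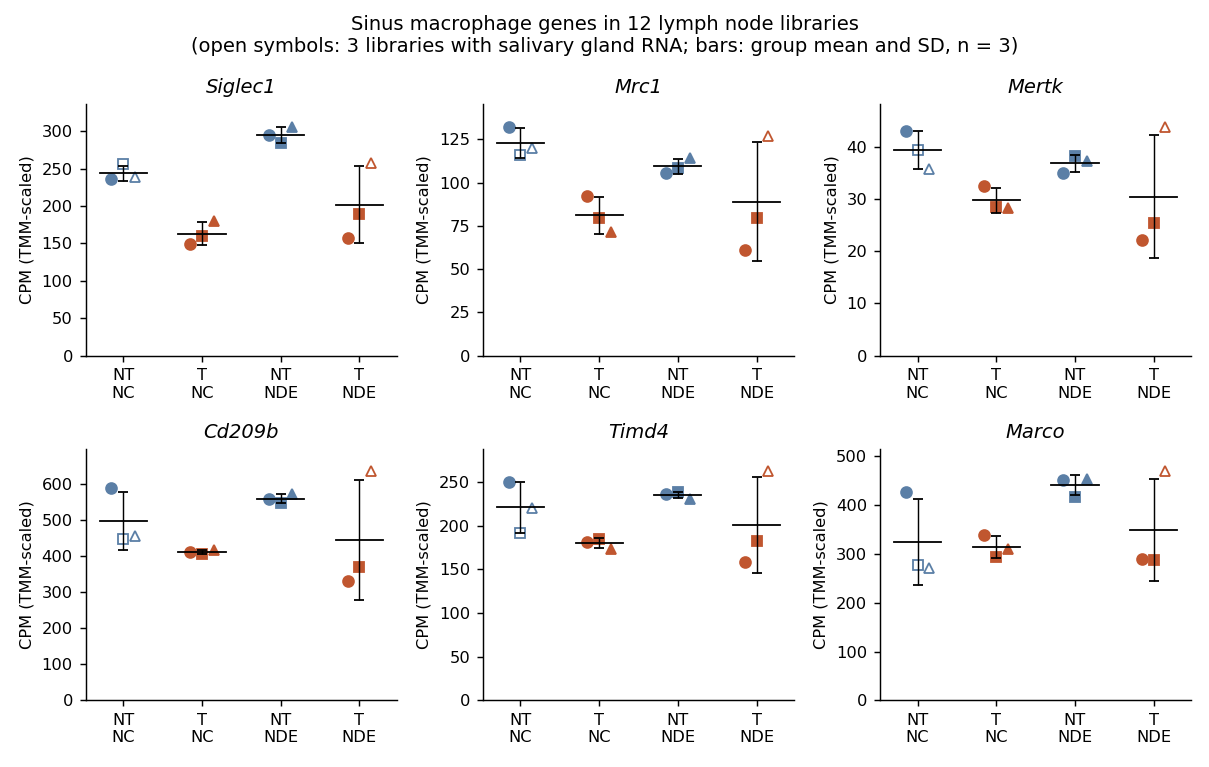
Levels of 6 genes of sinus macrophages (TMM-scaled CPM, vertical axis from 0) in the 4 groups, with 1 symbol per library (circle, square and triangle for replicates 1, 2 and 3), open symbols for the salivary libraries, and bars for the mean and SD of 3 libraries. Siglec1 in T NDE replicate 3 stands at 258 CPM, above the other 5 T libraries, and the same library is the highest of the T libraries for all 6 genes.

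Other receptors of sinus macrophages were lower in T in most libraries and did not pass the test with 12 libraries. Mrc1, which binds mannose-bearing glycans, measured 132, 116 and 120 CPM in NT NC against 92.4, 79.3 and 71.5 CPM in T NC. In the NDE arm it measured 105, 109 and 114 CPM in NT and 60.7, 79.3 and 127 CPM in T, so that the arms separated in NC and overlapped in NDE through replicate 3. Its pooled log2 fold change was -0.45 ± 0.16 (SE, edgeR adjusted p 0.999). Timd4, the phosphatidylserine receptor TIM-4 through which macrophages bind dying cells, had T values of 158, 182 and 262 CPM (lowest, median and highest of 6) and NT values of 192, 234 and 250 CPM, with a log2 fold change of -0.26 ± 0.10 (SE, edgeR adjusted p 0.999).

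Of 16 entries of the sinus macrophage list, 13 were tested, 2 (Vsig4 and Clec4f) had too few counts, and Cd169 is another name of Siglec1. Values were lower in T for 12 of the 13 and higher for 1, with 0 called. The list median was -0.19, against -0.00 over all genes tested. It was -0.10 in the NC arm and -0.27 in the NDE arm. The mean log2(CPM + 1) of the list was 6.24 and 6.41 in T NDE replicates 1 and 2, the lowest of the 12 libraries, and 7.03 in T NDE replicate 3, the highest. In bulk RNA, fewer macrophages and less RNA of these genes per macrophage cannot be told apart.

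Without the 3 salivary libraries, 65 of 18185 tested genes (0.357%) passed the edgeR test, 60 lower (0.33%) and 5 higher in T (0.0275%). This fit holds 5 T and 4 NT libraries, with 3 T NC and 2 T NDE libraries against 1 NT NC and 3 NT NDE libraries, so the NC arm rests on NT NC replicate 1. The 3 libraries were known from earlier work on these data to stand apart. Genes named from this fit alone were chosen after their values were seen. Of the 60 lower genes, 51 had all 5 T libraries under all 4 NT libraries. The genes were called on these same 9 libraries, which favours such separation, so the count is no separate support. The share over all genes tested is not given here. The median log2 fold change of the 60 lower genes was -0.47 with 9 libraries and -0.25 with 12. The 12-library value shares those 9 libraries and is no independent check of the direction.

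Ordered by p, 4 of the 5 genes that led those that fell were receptors of macrophages (Cd209b, Marco, Siglec1 and Timd4), and the other was Sulf2, an extracellular sulfatase. Ordered by size, the predicted or little-known genes Tmem254c and Gm47547 led, then Rspo3 and C6. Tmem254c rested on NT NC replicate 1 alone, at 4.55 CPM against 0 to 0.208 CPM in every other library. It had too few counts to be tested with 12 libraries. Cd209b (SIGN-R1), a C-type lectin of sinus macrophages that binds polysaccharide, measured 589 CPM in NT NC replicate 1 and 558, 547 and 571 CPM in NT NDE. In T it measured 411, 406 and 417 CPM in NC and 330 and 371 CPM in NDE replicates 1 and 2. The 4 NT libraries lay above the 5 T libraries. The log2 fold change was -0.60 ± 0.06 (SE, edgeR adjusted p 0.000382, 9 libraries), against -0.30 with all 12 (adjusted p 0.999). Cd209b belongs to a family of similar neighbouring genes on chromosome 8, and how shared reads were assigned among them is not known here. Cd209c, its neighbour, was among the genes with the smallest p over 12 libraries (2.44 ± 0.686 CPM in T and 4.04 ± 0.637 CPM in NT, SD, n = 6, edgeR adjusted p 0.999).

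Of the 13 sinus macrophage genes, 13 had lower values in T with 9 libraries (median -0.46) and 5 fell. Marco, a scavenger receptor for bacteria and particles, fell by 0.53 ± 0.06 on the log2 scale (SE, edgeR adjusted p 0.00138), from 427 CPM in NT NC replicate 1 and 417 to 453 CPM in NT NDE to between 287 and 339 CPM in the T libraries kept. With 12 libraries its log2 fold change was -0.19 (adjusted p 0.999), with -0.05 in the NC arm and -0.34 in the NDE arm. Siglec1 fell by 0.67 (adjusted p 0.00138), Mrc1 by 0.66 (0.0126), Timd4 by 0.46 (0.00138) and Mertk, a kinase receptor for apoptotic cell uptake, by 0.58 (0.00253). With 12 libraries these 4 had -0.56, -0.45, -0.26 and -0.34, and none passed. The other 8 did not pass, among them the complement genes C1qa, C1qb and C1qc, with log2 fold changes of -0.27, -0.39 and -0.38.

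Further genes that fell with 9 libraries are known from macrophages, a grouping made by hand after the calls were seen and not from a list. Csf1r, the receptor that maintains tissue macrophages, measured 319 CPM in NT NC replicate 1, 287 to 327 CPM in NT NDE, 232 to 276 CPM in T NC and 203 and 230 CPM in T NDE, a log2 fold change of -0.43 ± 0.07 (SE, edgeR adjusted p 0.0177). Folr2, a folate receptor of resident macrophages, had -0.50 (adjusted p 0.0183). Igf1, the growth factor that such macrophages secrete, had -0.48 (0.00156), and Dab2, an endocytic adaptor, -0.49 (0.00231). Axl, the sister receptor of Mertk, and Pros1, which encodes a bridging ligand of both, had -0.35 and -0.34 (adjusted p 0.0405 for each). With 12 libraries the values were -0.26 for Csf1r, -0.25 for Folr2, -0.22 for Igf1, -0.37 for Dab2, -0.14 for Axl and -0.18 for Pros1, and none passed. Of 14 monocyte genes, 6 were higher and 8 lower in value (median -0.05), and Csf1r was the 1 called.

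Some single genes of vessels and stroma were also called lower with 9 libraries, while their lists held few calls. These were 1 of 13 lymphatic endothelium, 1 of 15 blood endothelium and 1 of 16 fibroblastic reticular cell genes, and 0 of 22 collagen and matrix and 0 of 13 smooth muscle genes. Nrp2, Stab2 and Cldn5 are in none of the lists and were picked by hand. Kdr, the VEGF receptor of endothelium, had a log2 fold change of -0.40 (edgeR adjusted p 0.0106, 9 libraries), and Nrp2, a co-receptor for lymphangiogenic VEGF-C, -0.40 (0.0095). Stab2, a hyaluronan scavenger receptor of sinus endothelium, had -0.49 (0.0382), the tight junction gene Cldn5 -0.45 (0.0308) and Itga2b -0.62 (0.0106). With 12 libraries the same 5 genes had -0.21, -0.18, -0.27, -0.15 and -0.22, with -0.02 for Itga2b in the NC arm, and none passed. Among 13 lymphatic endothelium genes, 2 were higher and 11 lower with 9 libraries (median -0.34), and Itga2b was the 1 called. With 12 libraries the same list had 4 higher and 9 lower, a median of -0.10 and 0 called. Cxcl12, the stromal chemokine that holds CXCR4-bearing cells, had -0.35 (adjusted p 0.0494) and -0.17 with 12 libraries.

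**Figure D2:**
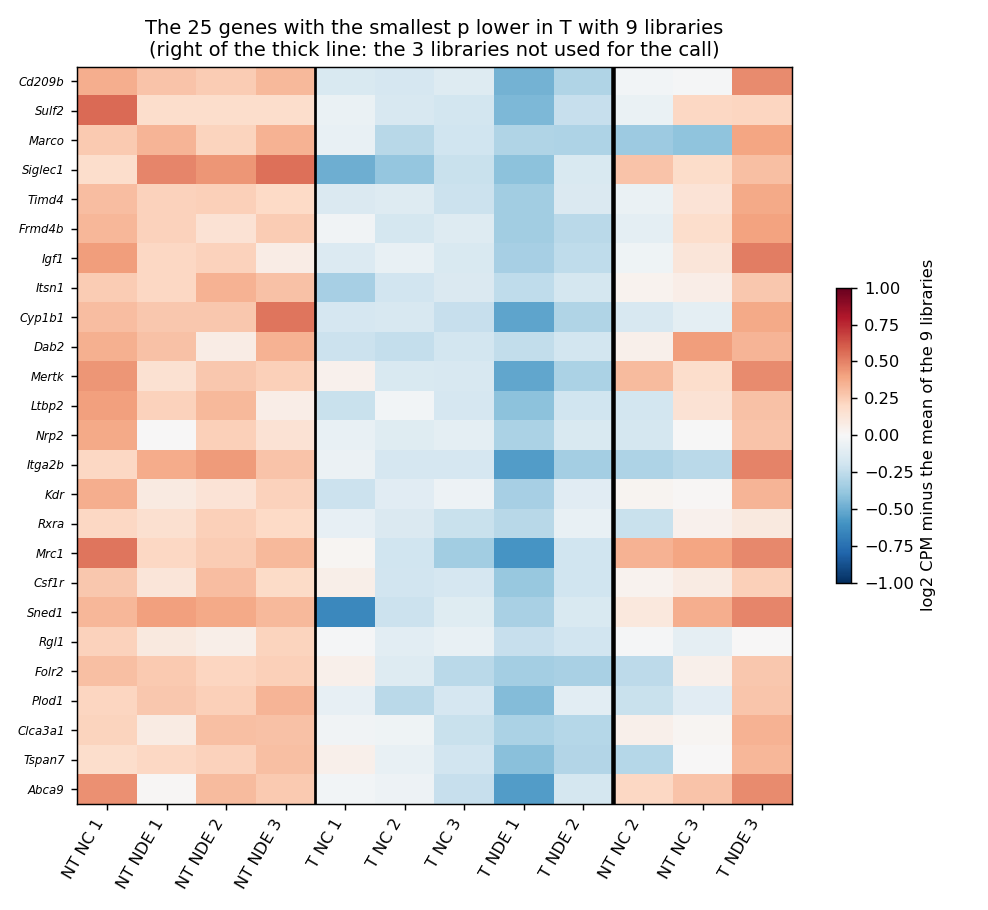
Log2 CPM of the 25 genes with the smallest p among those lower in T with 9 libraries and also tested with 12 (rows, ordered by p), each minus its mean over those 9 libraries (colour, limited to 1 in either direction), for the 9 libraries used and, right of the thick line, the 3 salivary libraries. Values in the T libraries used lie mostly below 0 by construction, while T NDE replicate 3 lies above the NT NDE mean for 42 of the 60 lower genes.

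The 3 libraries left out did not all follow the other 9. T NDE replicate 3 lay above the mean of the NT NDE libraries for 42 of the 60 lower genes, opposite to the call. NT NC replicates 2 and 3 lay above the mean of the T NC libraries for 41 and 51 of the 60, in the direction of the call. The T NC libraries were among those on which these genes were called lower, which favours this direction. Both counts are therefore no separate support, and the share over all genes tested is not given. For Cd209b, T NDE replicate 3 measured 635 CPM, the highest of the 12 libraries, and for Marco 469 CPM, also the highest. In NT NC replicates 2 and 3 Marco measured 277 and 270 CPM, the lowest of the 12. T NDE replicate 3 also had the highest level of adipocyte genes, with a mean log2(CPM + 1) of 4.05 against 1.91 to 3.34 in the other 11 libraries. The part of salivary or fat tissue RNA in these macrophage values was not tested.

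How many genes were called turned on this library more than on any other single one. Without T NDE replicate 3 alone, 12 of 17645 genes (0.068%) passed, 10 lower and 2 higher, and 10 of the 12 were among the 65. The lower ones were Cd33, Mertk, Dab2, C6, Itsn1, Mrc1, Siglec1, Sned1, Timd4 and Col6a5. The 2 higher ones were the ribosomal protein gene Rpl39 and the predicted gene Gm4332. Without T NDE replicate 1 there was 1 call, the predicted gene Gm30948, and without each of the other 10 libraries there were 0. With Bpifa2, a secreted protein gene of salivary glands, as a covariate and all 12 libraries kept, 0 genes passed (smallest adjusted p 0.0780).

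**Figure D3:**
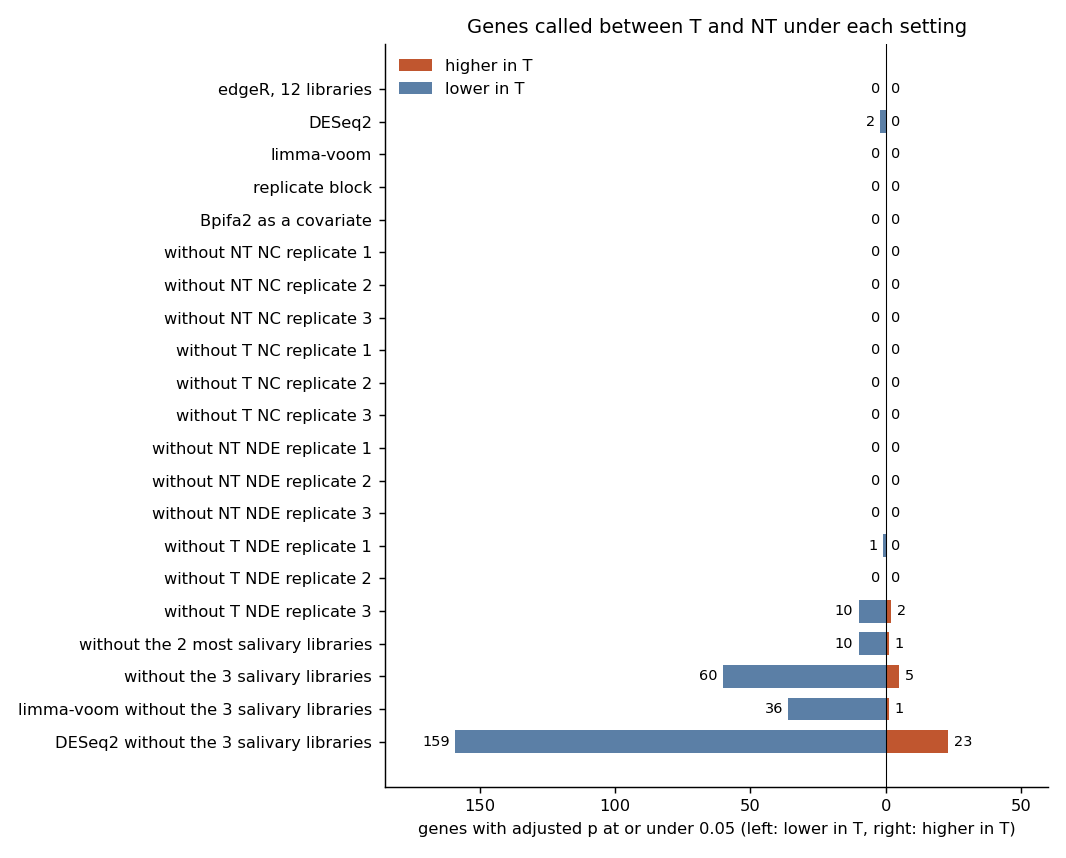
Number of genes with an adjusted p at or under 0.05 between T and NT (horizontal axis, left for lower and right for higher in T) under 21 settings, each 1 bar. Calls are 0 in edgeR with 12 libraries, 12 without T NDE replicate 3 and 65 without the 3 salivary libraries, and lower genes outnumber higher ones wherever there are more than 2.

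Without the salivary libraries, removing 1 more library left between 18 and 154 calls, and lower genes were the majority each time. Where NT NC replicate 1 was also removed, the tumour difference rested on 2 T NDE and 3 NT NDE libraries, and 22 genes passed, 21 of them lower. The same 9 libraries gave 37 calls with limma-voom, all among the 65, and 182 with DESeq2, which held 63 of the 65. These fits were chosen after the data were seen.

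Matrix and complement genes were also among those with the smallest p over all 12 libraries, in both directions. Thbs1, of the collagen and matrix list, was higher in T, with a log2 fold change of 0.37 ± 0.10 (SE, edgeR adjusted p 0.999). Of 22 genes of that list 9 were higher and 13 lower (median -0.05, 0 called). The 2 genes described next were lower. Col6a5, a collagen VI chain, measured 20.6, 22.5 and 27.9 CPM in NT NC against 13.6, 18.2 and 14.4 CPM in T NC. In the NDE arm it measured 26.0, 28.1 and 24.7 CPM without a tumour and 19.3, 19.3 and 22.4 CPM with one. The groups did not overlap within either arm. Its log2 fold change was -0.49 ± 0.09 (SE, edgeR adjusted p 0.774, DESeq2 adjusted p 0.0126, 0.0126 to 1.00 over all its alternatives), and -0.43 with 9 libraries (edgeR adjusted p 0.0883). C6, a component of the complement membrane attack complex, had T values of 10.9, 14.8 and 26.9 CPM (lowest, median, highest) and NT values of 19.5, 26.3 and 30.9 CPM, with a log2 fold change of -0.69 ± 0.17 (SE, edgeR adjusted p 0.999).

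Il22ra2, which encodes the soluble decoy receptor that binds interleukin-22, separated all T from all NT libraries. It measured 84.8, 80.5 and 73.6 CPM in NT NC and 84.1, 80.3 and 88.6 CPM in NT NDE. In T it measured 45.6, 32.7 and 20.1 CPM in NC and 60.5, 59.2 and 55.1 CPM in NDE. The averages were 45.5 ± 16.2 CPM in T and 82.0 ± 5.13 CPM in NT (SD, n = 6), 1.87-fold lower in T by the fitted ratio. The edgeR adjusted p was 0.999, and the log2 fold changes of -1.27 in the NC arm and -0.53 in the NDE arm had an adjusted p of 0.698 for their difference. With 9 libraries the log2 fold change was -0.82 (adjusted p 0.488).

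In 76 of 17301 genes (0.439%) the T libraries lay on the same side of the NT libraries without overlap in both arms, 43 higher (0.249%) and 33 lower (0.191%). The 6 T libraries lay above all 6 NT libraries in 20 genes (0.116%) and below them in 11 (0.0636%). Whether these counts exceed those of chance orderings of the libraries was not tested. Besides Il22ra2, the lower ones included Mybpc1, a myosin-binding protein gene, at 0.533 to 2.13 CPM in T and 2.36 to 3.46 CPM in NT, and Mtss1, an actin and membrane regulator, at 144 to 152 CPM in T and 153 to 177 CPM in NT. The log2 fold changes were -1.08 and -0.15 (edgeR adjusted p 0.999 for each).

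Small nuclear-encoded genes of respiration and translation stood on the higher side with small differences. Cox7a2, a subunit of cytochrome c oxidase, measured 33.9 to 37.7 CPM in the 6 T libraries and 27.6 to 33.2 CPM in the 6 NT libraries, without overlap. Its log2 fold change was 0.23 ± 0.06 (SE, edgeR adjusted p 0.999), with 0.22 in the NC arm, 0.24 in the NDE arm and 0.24 with 9 libraries. Atp5e, the epsilon subunit of ATP synthase, had 71.8 to 82.5 CPM in T and 60.3 to 72.7 CPM in NT, a log2 fold change of 0.20 ± 0.05 (SE, edgeR adjusted p 0.999). T NDE replicate 3 was again the library that overlapped, at 71.8 CPM.

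In the oxidative phosphorylation list 19 of 19 genes had higher values in T, with 0 called and a median of 0.06. The NC arm gave 18 of 19 higher (median 0.14) and the NDE arm 12 of 19 (median 0.02). Mitochondrially encoded transcripts had another arm pattern. Of 12 tested, 8 were higher (median 0.03, 0 called), with 2 in the NC arm (median -0.13) and 11 in the NDE arm (median 0.18). Of 24 cytosolic ribosomal protein genes, 22 were higher (median 0.07, 0 called), with 23 of 24 in the NC arm and 15 of 24 in the NDE arm. The 2 list members with the smallest p were Rps18 and Rplp2, with log2 fold changes of 0.12 and 0.15. The list does not hold Rpl39 and Rpl36, which were among the 24 genes with the smallest p and had larger differences than any of its members. Rpl39 averaged 276 ± 21.5 CPM in T and 241 ± 17.5 CPM in NT and Rpl36 260 ± 18.5 and 225 ± 16.9 CPM (SD, n = 6), with log2 fold changes of 0.20 and 0.21 (edgeR adjusted p 0.999 for each). With T NDE replicate 3 alone left out, Rpl39 passed the edgeR test and Rpl36 did not. Ribosomal protein genes have many processed copies in the genome, and how reads shared with those copies were assigned is not known. With 9 libraries 19 of 19 oxidative phosphorylation and 24 of 24 cytosolic ribosomal protein genes were higher, with 0 called in either list. In that fit 53.2% of all genes tested were higher and 46.8% lower.

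**Figure D4:**
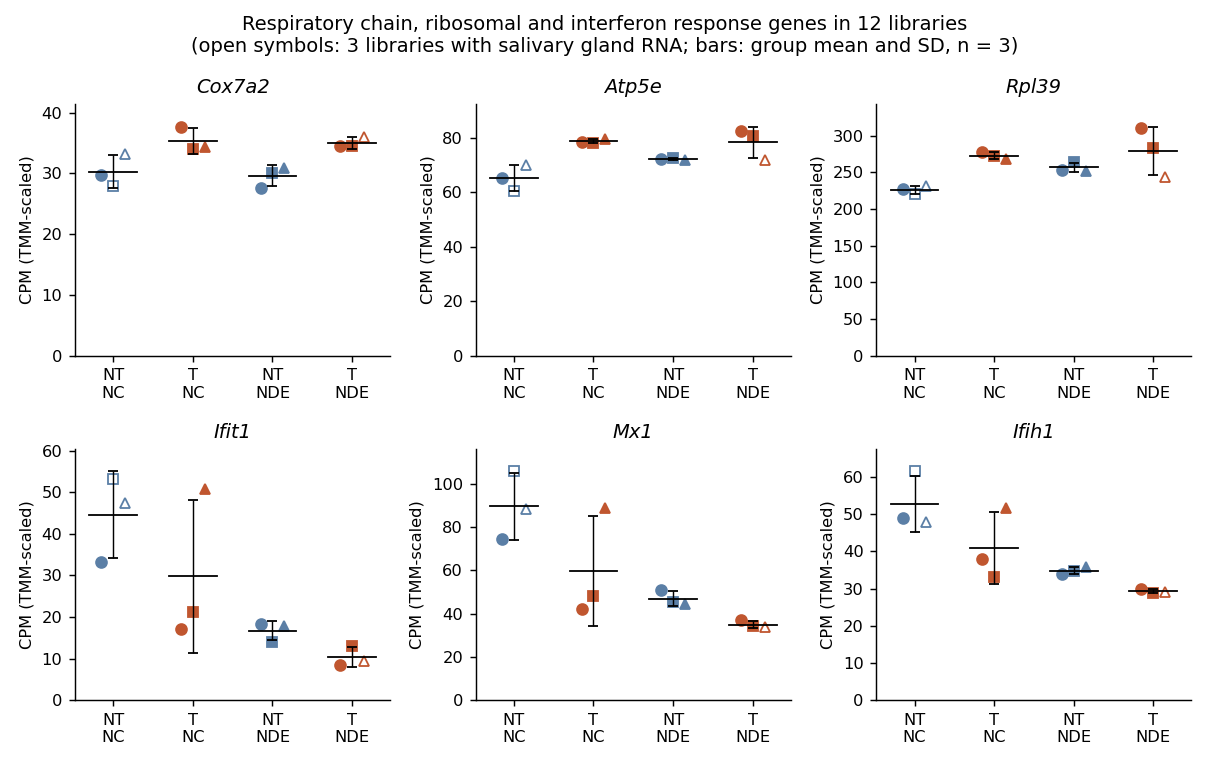
Levels of 2 respiratory chain genes, 1 ribosomal protein gene and 3 interferon response genes (TMM-scaled CPM, vertical axis from 0) in the 4 groups, with symbols and bars as in the plot of sinus macrophage genes. Cox7a2 is higher in each T library than in any NT library (33.9 to 37.7 against 27.6 to 33.2 CPM), while Ifit1 in T NC replicate 3 stands at 50.7 CPM among T values otherwise at or under 21.3 CPM.

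Type I interferon response genes were lower in T in value, with 0 called. All 22 genes of the list had a negative log2 fold change, and the median was -0.42, the lowest of the lists of node cells and programmes. In the NC arm 0 of 22 were higher (median -0.43) and in the NDE arm 1 of 22 (median -0.44). With 9 libraries 1 of 22 was higher, the median was -0.21 and 0 were called. Promoters of this list are known to carry interferon-stimulated response elements, bound by the interferon-activated factor ISGF3. Their core, 2 copies of GAAA with any 2 bases between them, was searched on both strands, with overlapping matches counted, in the window from 250 bases before to 50 after each start in the RefSeq promoter table of build GRCm38.p6, where 16 of the 22 genes had an entry. It was found in 9 of 17 promoters of the list (52.9%), against 3.44% of 32851 promoters in the table. Of 10 sinus macrophage promoters 0 held it, and of 59 promoters of the genes lower with 9 libraries 2 did (3.39%). Siglec1 had no entry in the promoter table, so its promoter was not searched. A match is a run of letters, not a measured binding site. The promoters of Ifit1 (chr19:34640639-34640938, plus strand) and Isg15 (chr4:156200769-156201068, minus strand) are shown because they hold 2 and 3 matches, marked in capitals. The 3 in Isg15 overlap one another.
Ifit1: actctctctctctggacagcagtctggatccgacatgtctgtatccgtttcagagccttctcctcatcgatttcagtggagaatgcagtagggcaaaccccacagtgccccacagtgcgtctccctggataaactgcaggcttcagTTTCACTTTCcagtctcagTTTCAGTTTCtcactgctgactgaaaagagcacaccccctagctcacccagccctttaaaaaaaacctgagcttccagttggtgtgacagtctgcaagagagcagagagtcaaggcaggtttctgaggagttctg
Isg15: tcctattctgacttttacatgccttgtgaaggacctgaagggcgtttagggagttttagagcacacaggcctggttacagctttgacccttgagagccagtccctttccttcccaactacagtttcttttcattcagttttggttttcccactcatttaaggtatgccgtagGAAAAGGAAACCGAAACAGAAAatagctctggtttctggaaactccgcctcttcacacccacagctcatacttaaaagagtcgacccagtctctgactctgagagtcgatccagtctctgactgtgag

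Ifit1, an antiviral RNA-binding protein gene, measured 33.1, 53.3 and 47.5 CPM in NT NC and 17.2, 21.3 and 50.7 CPM in T NC. In NDE it measured 18.3, 14.0 and 17.8 CPM without and 8.50, 13.1 and 9.57 CPM with a tumour. T NC replicate 3 reached the NT NC range, and the NDE groups did not overlap. The log2 fold change was -0.64 ± 0.27 (SE, edgeR adjusted p 0.999), and Isg15, a ubiquitin-like modifier gene, had -0.38. Mx1, a dynamin-like antiviral GTPase gene, repeated the pattern with 88.8 CPM in T NC replicate 3 against 42.2 and 48.0 CPM in the other T NC libraries, and had a log2 fold change of -0.51 ± 0.17 (SE, edgeR adjusted p 0.999). Ifih1, the RNA sensor MDA5, had 28.9, 31.5 and 51.6 CPM in T (lowest, median, highest) and 33.9, 41.9 and 61.4 CPM in NT, with -0.31 ± 0.09 (SE, edgeR adjusted p 0.999).

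The second sequence searched was AGGAAGT, a core bound by ETS factors such as PU.1 of the myeloid lineage. It was present in 3 of 10 sinus macrophage promoters (C1qb, C1qc and Mrc1), in 5 of 59 promoters of genes lower with 9 libraries (8.47%), in 0 of 17 of the interferon list and in 9.35% of all promoters. The promoter of Mrc1 (chr2:14229164-14229463, plus strand) is shown with the match, which lies on the opposite strand, in capitals.
Mrc1: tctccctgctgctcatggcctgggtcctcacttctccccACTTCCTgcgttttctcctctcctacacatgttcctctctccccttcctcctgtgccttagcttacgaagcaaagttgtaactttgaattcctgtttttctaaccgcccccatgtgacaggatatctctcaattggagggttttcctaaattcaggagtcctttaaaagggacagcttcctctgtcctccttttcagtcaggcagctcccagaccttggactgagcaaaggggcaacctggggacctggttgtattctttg

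Neutrophil genes had higher values in T in the NC arm and mostly lower ones in the NDE arm. Of 17 genes, 16 were higher in T with 12 libraries (median 0.55), 16 in the NC arm (median 1.30) and 4 in the NDE arm (median -0.24), with 0 called. S100a8, a calcium-binding alarmin of neutrophils, measured 34.1, 22.3 and 17.6 CPM in NT NC against 49.1, 78.0 and 96.5 CPM in T NC, and 42.3, 48.4 and 38.0 CPM in NT NDE against 53, 32.7 and 34.4 CPM in T NDE. The NC groups did not overlap and the NDE groups did. The pooled log2 fold change of 0.75 ± 0.37 (SE, edgeR adjusted p 0.999) therefore averages 1.60 and -0.10, and the adjusted p of their difference was 0.622. With 9 libraries the list median was 0.17.

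Genes of most B cell and proliferation lists had higher values in T without a call. Germinal centre B cell genes were higher in 10 of 12 (median 0.18), follicular helper T cell genes in 8 of 9 (median 0.11), cell cycle genes in 23 of 26 (median 0.07) and pan B cell genes in 11 of 14 (median 0.03). Plasma cell genes went the other way, with 5 higher and 9 lower of 14 (median -0.03, 0 called). In the NC arm the germinal centre, follicular helper, cell cycle and pan B cell lists had medians of 0.28, 0.17, 0.13 and 0.02. In the NDE arm these medians were 0.14, 0.03, 0.01 and 0.03. Cell cycle genes were higher in 25 of 26 in the NC arm and in 16 of 26 in the NDE arm. With 9 libraries 9 of 12 germinal centre B cell genes were higher, with a lower median of 0.06, and 7 of 10 follicular helper T cell genes, with a median of 0.16. In the same fit all 26 cell cycle and all 14 pan B cell genes were higher (medians 0.26 and 0.17), with 0 called. NT NC replicate 1, the only NT NC library in that fit, had the lowest cell cycle level of the 12, a mean log2(CPM + 1) of 4.77 against 5.24 to 5.62 in the others. Ccr6, a chemokine receptor of B cells and interleukin-17 T cells, was 1 of the 5 genes called higher with 9 libraries, at 67.7 CPM in NT NC replicate 1, 89.7 to 99.2 CPM in NT NDE, 81.6 to 98.1 CPM in T NC and 109 and 115 CPM in T NDE (log2 fold change 0.32, edgeR adjusted p 0.0494). Its T and NT libraries overlapped, and with 12 libraries the value was 0.09.

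**Figure D5:**
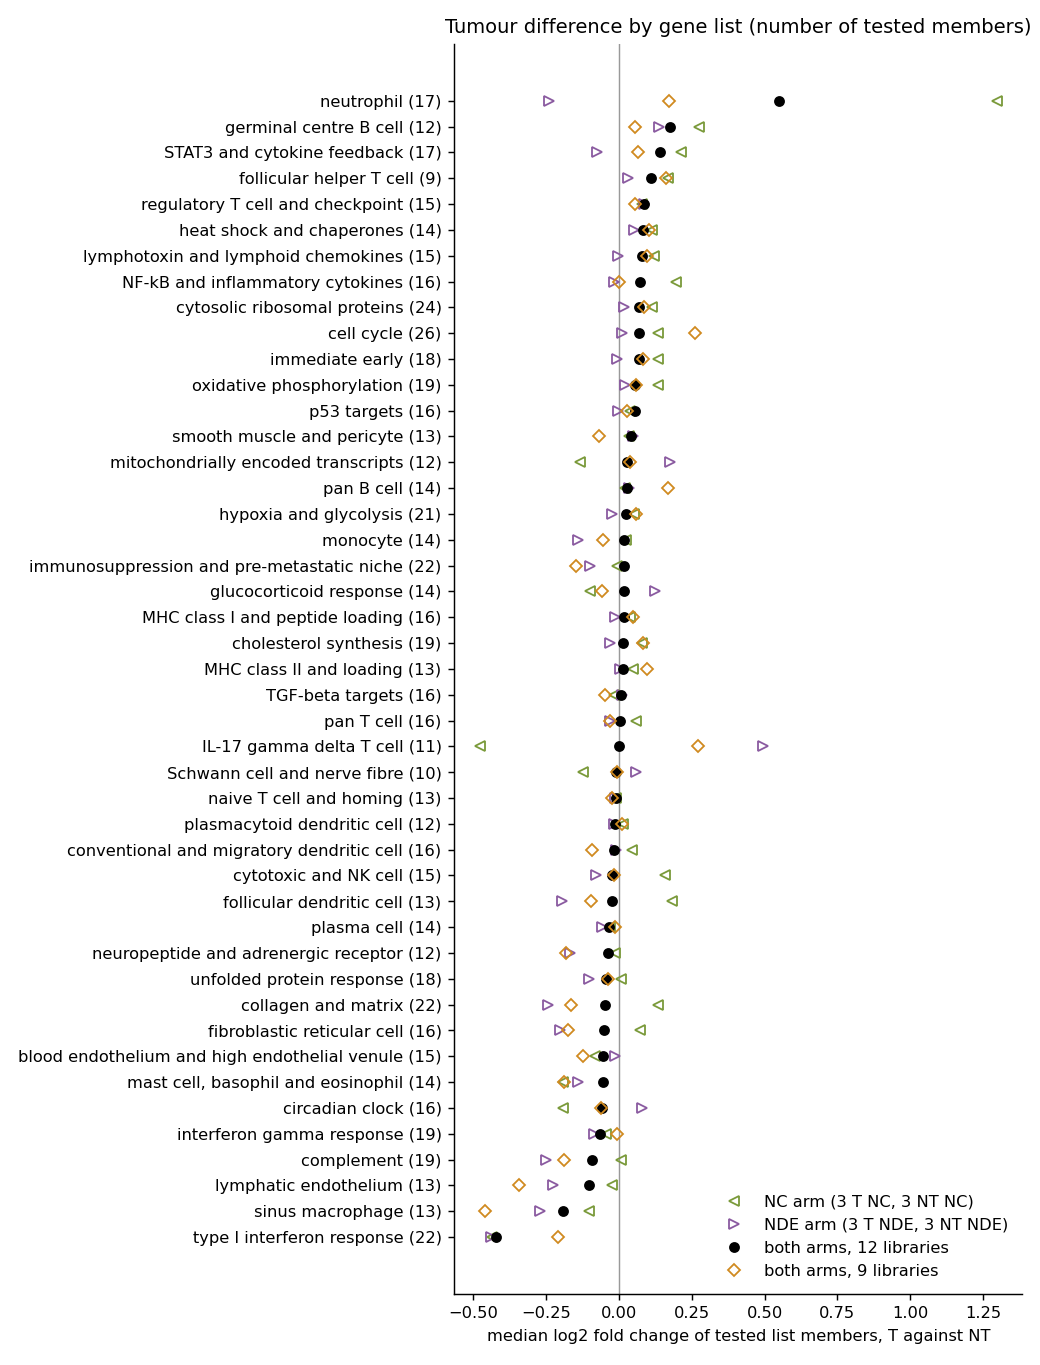
Median log2 fold change, T over NT, of the tested genes of each list of node cells and programmes (number tested in brackets), for the NC arm, the NDE arm, both arms with 12 libraries and both arms with 9 libraries. Type I interferon (-0.42) and sinus macrophage genes (-0.19) are lowest with 12 libraries, and the neutrophil list spans 1.30 in the NC arm to -0.24 in the NDE arm.

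Transcripts of pigment cells, which B16F10 cells carry, were near the limit of counting in both groups. Tyrp1, a melanosomal enzyme, had 0 counts in all 6 NT libraries, which allows up to 0.125 to 0.171 CPM by counting error alone. In T it had 11 counts in T NC replicate 3, 4 in T NDE replicate 2, 1 in T NDE replicate 3 and 0 in the other 3. Dct, the enzyme beside it in melanin synthesis, had 3 counts in T NC replicate 3, 5 in T NDE replicate 2, 0 in the other 4 T libraries, and 1 count over all NT libraries. Both fell under the count filter and were not tested. Tyr, Pmel and Mlana summed to 59, 93 and 6 counts in T and 73, 71 and 4 in NT. The 5 genes together came to 0.817 to 2.49 CPM in T and 0.896 to 1.59 CPM in NT.

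Other tissues contributed unevenly. Adipocyte genes had a median log2 fold change of 1.14 over 12 tested genes, with 10 higher and 0 called, and 0.03 with 9 libraries. Cfd, the adipocyte protease adipsin, measured 21.9 CPM in T NDE replicate 3 and 13.4 CPM in T NC replicate 3, against 1.32 to 5.65 CPM in the other 4 T and 0.375 to 5.10 CPM in the 6 NT libraries. Erythroid genes had a median of 0.43 over 7 genes with 12 libraries and -0.43 with 9. Of 12 keratinocyte and tongue epithelium genes 2 were tested, and of 16 skeletal muscle genes 5, with 0 called in either.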

How the data were processed

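Bulk RNA-seq of lymph nodes was analysed for 12 libraries. Per the labels' protocols, Trizol was used for the RNA and the usual Illumina procedure for the mRNA libraries. The authors deposited unnormalized counts of reads for each gene, all whole numbers. The submitters' processing notes name HISAT2 2.0 and mm10. Their read counter, annotation and strand setting were not given in the sources used here, so the assignment of reads shared by similar, overlapping or antisense genes is unknown. At most 0.0548% of a library's counts fell on IDs with no symbol.

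Fits used edgeR 4.0.16 in R 4.3.3: TMM factors (0.967 to 1.01), filterByExpr by group (minimum count 10, minimum total 15), and the robust quasi-likelihood fit of nerve status plus tumour over 12 libraries (9 residual degrees of freedom). Values within an arm and the difference between arms came from a fit of 4 group means. P-values were two-sided and adjusted by the Benjamini-Hochberg method over all genes tested, with a threshold of 0.05. CPM values are TMM-scaled, except those of pigment genes, summed levels of lists and salivary shares, which use library totals. The script was tested on simulated data. DESeq2 1.42.0 and limma-voom (limma 3.58.1) were alternatives among 41, of which 15 were added after the data were seen.

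The members and the 52 gene lists were chosen with earlier results of these data known. Because fewer than 10 genes were called, the rule named the 24 genes with the smallest p among those with at least 1 CPM, leaving out antigen receptor, predicted and unnamed genes, and the 2 members of each list with the smallest p, of which the text describes some. Other genes named were chosen after their values were seen. A further gene is not reported here. Lists are described by counts and medians, without a test. Gene positions follow GENCODE M21 (mm10) and promoters RefSeq, which had no entry for Siglec1 or Mx1. Figures were drawn with Python 3.11.15 and matplotlib 3.10.9.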

Additional observations from a re-analysis of the deposited data

Results flagged for a closer look

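In 108 groups of 6 libraries (the T or the NT libraries, for each of 54 genes), 19 had a highest or lowest library set apart from the other 5 by more than Dixon's 95% critical value. The 54 genes include some that the text does not name, and some genes that it names are not among them. Chance flags about 1 in 20 groups of independent genes chosen without regard to their values. That rate does not apply here: 8 of the 13 genes for which T NDE replicate 3 stood apart were chosen after being called lower with that library left out, which favours genes where it lies apart, and the genes vary together.

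T NDE replicate 3 was the library set apart in 13 of them, each time as the highest T library. For macrophage and other myeloid genes its level was 258 CPM for Siglec1 (149 to 189 in the other T libraries), 262 CPM for Timd4 (158 to 184), 635 CPM for Cd209b (330 to 417), 469 CPM for Marco (287 to 339), 83.5 CPM for Cd33 (57.8 to 66.2), 75.5 CPM for Igf1 (42.0 to 50.1) and 83.7 CPM for Dab2 (55.7 to 58.3). For vessel, matrix and other genes it was 100.2 CPM for Nrp2 (66.0 to 78.1), 150.1 CPM for Kdr (94.3 to 115), 134 CPM for Cyp1b1 (71.4 to 91.9), 80.0 CPM for Sned1 (36.5 to 52.3), 69.1 CPM for Itsn1 (45.6 to 51.9) and 26.9 CPM for C6 (10.9 to 15.5).

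T NC replicate 3 was set apart as the highest T library for 2 interferon response genes, Mx1 at 88.8 CPM (33.9 to 48.0 in the others) and Ifit1 at 50.7 CPM (8.50 to 21.3). Among NT libraries, NT NC replicate 2 was highest for Mybpc1 at 3.46 CPM (2.36 to 2.68) and lowest for Sned1 at 61.3 CPM (71.3 to 75.8). NT NDE replicate 2 was highest for Ubd, a ubiquitin-like modifier gene, at 34.1 CPM (26.3 to 29.0), and NT NC replicate 1 was highest for Sulf2 at 82.0 CPM (53 to 63.9).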

How the results depend on the processing

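The count of called genes depended on the libraries used. It was 0 with 12 libraries, and 0 in 10 of the 11 alternatives that kept all 12. DESeq2 gave 2, both lower, and the NDE arm alone gave 1, lower. Leaving out each library in turn gave 0 to 12 calls (0 to 2 higher, 0 to 10 lower), with the 12 without T NDE replicate 3. Without the 3 salivary libraries there were 65 calls, 5 higher and 60 lower, and without the 2 most salivary ones 11. Further changes to the 9-library fit gave 182 (DESeq2), 37 (limma-voom), 56 (DESeq2 size factors), 60 (at least 1 CPM in at least 6 libraries) and 38 (replicate block). Leaving out 1 more library gave 22 without NT NC replicate 1, 154, 30 and 44 without T NC replicates 1, 2 and 3, 32, 18 and 29 without NT NDE replicates 1, 2 and 3, and 18 and 56 without T NDE replicates 1 and 2. The cause of these differences was not tested.

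The replicate numbers were not taken to pair libraries: 3 of 18 pairs with the same number had a correlation over 0.1 (range -0.15 to 0.58). With the replicate block and 12 libraries 0 genes passed (smallest adjusted p 0.0754). Of 1457 alternative values of the 54 genes checked for outlying libraries, 1411 kept their direction and side of the threshold. Another 45 passed it with the direction kept, and 1 changed sign, S100a8 at -0.10 in the NDE arm alone. Of 1403 alternative list medians, 53 moved by more than 1 SD between libraries of a group. The keratinocyte list gave no value under the stricter filter. Depth limits genes under the count filter, which include Tyrp1 and Dct.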
